A study of Mus musculus with 21 samples.

Results

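The skin of mice that lack JNK1 was set against the skin of wild-type mice across all genes of an expression array. The comparison holds every skin sample of the series, 4 knockout (KO) and 3 wild-type (WT) arrays, which are 7 of 21 samples. The other samples are 6 of liver and 8 of fat from the same genotypes. All mice were C57Bl6/J males that ate a high-fat diet between 5 and 44 weeks of age and were sampled at 45 weeks, so no group was lean. KO mice lack JNK1, the product of Mapk8, and the labels state neither which part of the gene was removed nor whether WT mice were littermates. They also do not say that each array is a different mouse, so p-values measure the spread between these samples, which may be technical.

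JNK1 is one of the c-Jun N-terminal kinases, which are switched on by cytokines, fatty acids, ultraviolet light and oxidants and phosphorylate JUN and other AP-1 transcription factors. In skin, AP-1 takes part in keratinocyte growth, wound repair and cornification. Hair follicles pass through growth (anagen), regression and rest, and the growing follicle makes the keratins and keratin-associated proteins of the hair shaft, together with its pigment.

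Each level is the log2 intensity of a gene after subtraction of its array's 75th percentile, and each difference is the KO mean less the WT mean. Between 38.9% and 52.8% of probes were well above background on the skin arrays, with KO 1 lowest at 38.9% and WT 1 next at 39.5%. KO 1 and WT 1 also lay at the ends of the first principal component (54.6% of variance), at -71.8 and 82.8, and the other arrays between -31.3 and 22.8. On it every KO array lay at -0.8 or below and every WT array at 10.6 or above. On the second component (24.2%) KO 1 and WT 1 lay together, at -43.8 and -45.8, and the other arrays between 3.9 and 31.1. The keratin gene Krt5 marked the tissue, at 8.97 to 9.74 on skin arrays against at most 1.37 on liver and -0.62 on fat arrays. The liver gene Alb was measured on skin arrays at 5.02 to 6.71, against 9.27 to 10.28 in liver. No slide held skin arrays of both genotypes, so slide and genotype cannot be told apart within skin.

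Mapk8 was close to background in skin. Its brightest probe (chromosome 14, 34204748 to 34204807, mm9) read -4.46, -4.17, -5.18 and -5.24 on KO arrays, against -4.14, -2.42 and -2.16 on WT arrays. The groups did not overlap, but WT 1 lay beside the KO values. The probe was well above background on 0 of 4 KO and 2 of 3 WT arrays, was at least 1.03-fold lower in KO, and was too dim to be tested. The same probe averaged -4.12 ± 0.79 in KO and -1.75 ± 0.20 in WT liver (SD, n = 3 each). In fat it averaged -3.30 ± 0.28 in KO (SD, n = 4) and -0.92 ± 0.11 in WT (SD, n = 3, without the fat WT 2 scanner file). Mapk9, the gene of the sister kinase JNK2, had a difference of 0.03 (SE 0.233, limma adjusted p = 0.952), with a sign that changed with the processing. Mapk10 was not well above background on any skin array.

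Rpp14 and Gpnmb fell in KO skin, and they were the genes that passed the test among 13536 (limma, adjusted p below 0.05). These are 0.0148% of the genes tested for the lower direction, and the share for the higher direction was 0%. At an unadjusted p below 0.05, 387 genes were higher (2.86%) and 672 lower (4.96%). That balance turned with the processing: it was 524 and 422 with median scaling, 489 and 474 in the authors' value table, and 390 and 1382 with normexp background correction. Rpp14 encodes a subunit of ribonuclease P, which trims transfer RNA precursors. Rpp14 read -3.54, -3.73, -3.15 and -2.90 on KO arrays, against -0.62, -0.13 and -0.10 on WT arrays. The KO arrays all lay far below the WT arrays, by -3.05 (SE 0.261, limma adjusted p = 0.0231). The probe, on chromosome 14 (8924219 to 8924278, mm9), was well above background on 1 of 4 KO and 3 of 3 WT arrays.

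Gpnmb encodes a membrane glycoprotein of macrophages, osteoclasts and melanocytes. Gpnmb read -2.19, -2.08, -1.32 and -2.53 on KO arrays, against 1.36, 3.12 and 2.67 on WT arrays. The groups were wide apart, by -4.42 (SE 0.444, limma adjusted p = 0.0414), and the probe lies on chromosome 6 (49006386 to 49006445, mm9). Rpp14 passed under 9 and Gpnmb under 8 of 19 other processing settings, with limma adjusted p between 0.000276 and 0.279 for Rpp14 and between 2.69e-05 and 0.298 for Gpnmb. No gene passed without KO 1, without KO 2, without KO 3 or without WT 3 (0 of the genes tested in each), and in the authors' value table Rpp14 alone passed. The differences themselves lay between -3.22 and -1.03 for Rpp14 and between -4.93 and -2.33 for Gpnmb, smallest with normexp background correction for Rpp14 and with the mean over a gene's probes for Gpnmb.

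In fat, Rpp14 averaged -3.27 ± 0.15 in KO (SD, n = 4) and 0.16 ± 0.13 in WT (SD, n = 3), all well above background. In liver it was well above background on 0 of 3 KO and 2 of 3 WT arrays, with WT values of -2.73, -3.25 and -0.08, so a single WT array was far from the KO values. Gpnmb averaged 1.33 ± 0.40 in KO and 5.41 ± 1.45 in WT fat. In liver, where 1 of 3 KO arrays measured it above background, it averaged -3.87 ± 1.80 in KO and 1.59 ± 0.79 in WT (SD, n = 3 each). The skin effect minus the fat effect was 0.38 for Rpp14 and -0.33 for Gpnmb (limma adjusted p = 0.839 and 0.905).

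**Figure D1:**
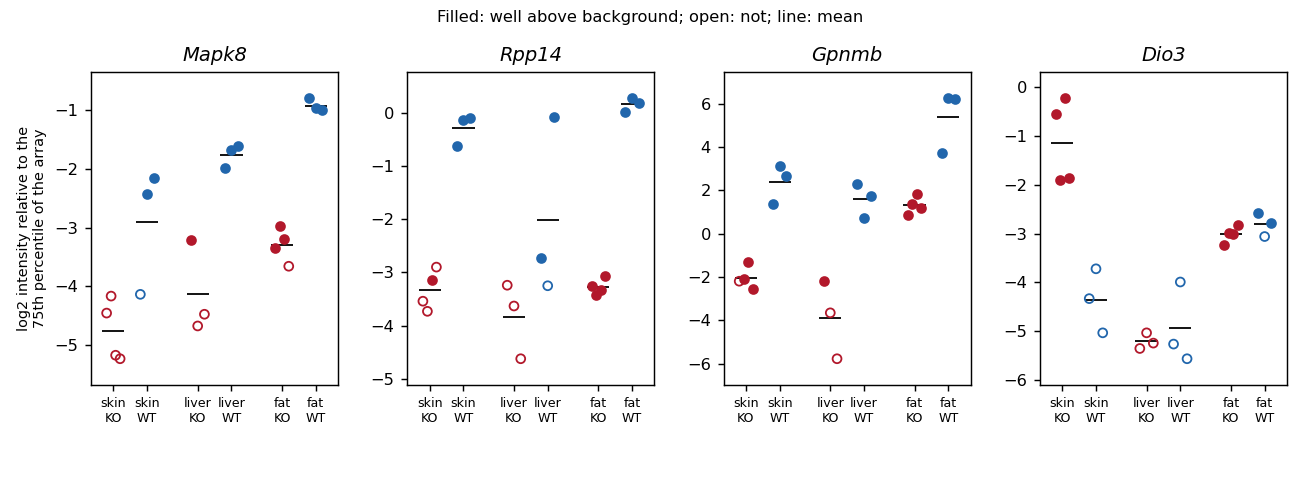
Levels of Mapk8, Rpp14, Gpnmb and Dio3 on the arrays of skin, liver and fat (log2, vertical, with the array's 75th percentile at 0), KO in red left of WT in blue, a point for each array (filled where well above background) and lines at group means. Gpnmb averages -2.03 ± 0.51 in KO and 2.39 ± 0.91 in WT skin, and is lower in KO in liver and fat as well.

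Genes on chromosome 14 near Mapk8 were examined since alleles close to a targeted gene can be inherited with it. Of 84 genes tested within 10 Mb, 2 were higher and 10 lower at an unadjusted p below 0.05, against 2.86% and 4.96% of all genes tested, and 0 passed the adjusted test. Their median difference was -0.15, against -0.10 for all genes. The following 2 lie near Mapk8 and are among these 10 lower genes, and they are not given by the naming rule. Wdfy4, which acts in antigen cross-presentation, read -0.25, 0.59, 0.36 and 0.02 on KO arrays, against 1.51, 1.34 and 1.0 on WT arrays (limma adjusted p = 0.252). Gdf10, a secreted protein gene of the TGF-beta family, read -3.39, -1.76, -1.58 and -0.49 on KO arrays, against 0.35, -0.13 and -0.06 on WT arrays (limma adjusted p = 0.556). Neither gene's groups overlapped, which a choice among genes with a low p favours. Arhgap22, whose probe lies closer to that of Mapk8, differed by -0.62 (limma adjusted p = 0.556). Rpp14 lies 25.3 Mb from Mapk8.

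Large differences ran mostly one way. At least 4-fold differences were found for 154 genes higher in KO (1.14% of those tested) and 6 lower in KO (0.0443%). In the authors' value table the counts were 130 and 2, and 129 of the 130 were among the 154. A gene was tested when well above background on at least 3 arrays, so arrays of a single group could suffice. Spink12, for example, was so on 4 of 4 KO and 0 of 3 WT arrays. Over genes well above background on all 7 arrays the counts were 86 and 0, and with no filter on dim probes 170 and 11. With the 75th percentile as scale, small differences leaned the other way, as 39.4% of genes had a difference above 0 and the median of all genes was -0.10. All KO arrays lay above all WT arrays for 454 genes (3.35%) and below them for 1102 (8.14%). Of the 154 genes, 65 were in the hair lists, 14 in the list of stress keratins and activated epidermis, 6 in the melanocyte list and 60 in no list. Some of these 60 are unnamed transcripts that lie between genes of keratin-associated proteins (KRTAP). Gm11938 lies between Krtap1-5 and Krtap2-4, and Gm10228 and Gm10229 lie between Krtap19-4 and Krtap21-1, so the 60 are not all apart from the hair genes.

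**Figure D2:**
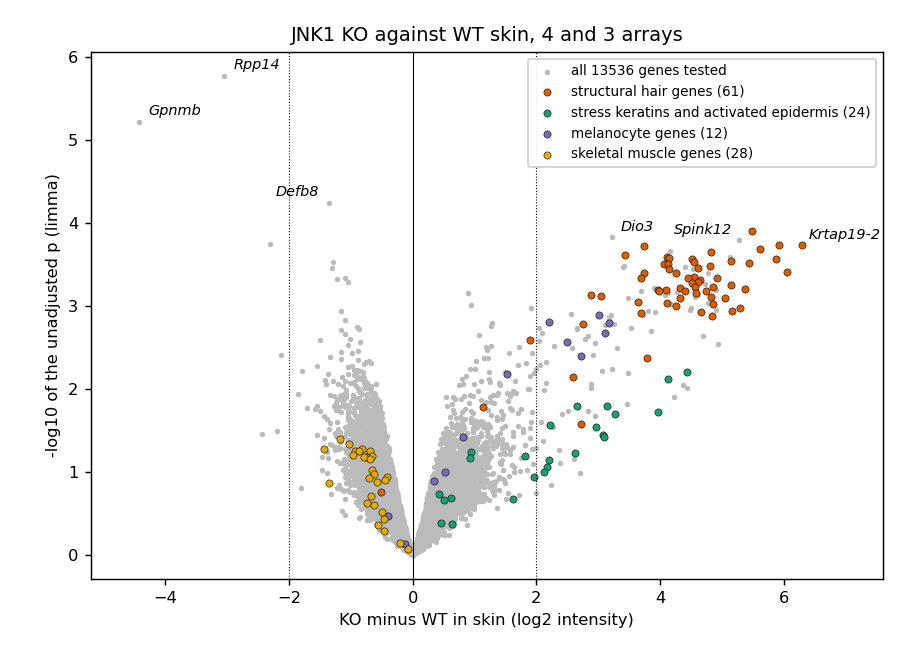
KO minus WT in skin (log2, horizontal) against -log10 of the unadjusted p (vertical) for 13536 genes, with 4 gene groups in colour and dotted lines at 4-fold. The hair genes sit at the right, most of them past 4-fold, and Rpp14 and Gpnmb lie at the upper left.

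Genes that build the hair shaft and its sheath had the highest differences. The lists of shaft keratins, inner root sheath genes and both kinds of keratin-associated proteins (KRTAP) held 61 tested genes of 65 on the array. Of these, 60 were higher in KO at an unadjusted p below 0.05, 58 by at least 4-fold, and 59 had all KO arrays above all WT arrays. Over all genes tested these shares were 2.86%, 1.14% and 3.35%. None of the 61 passed the adjusted test (limma adjusted p between 0.145 and 0.564). Their median difference was 4.51, against -0.10 for all genes tested. In whole skin, fewer or more cells of a type and less or more RNA per cell cannot be told apart.

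Krt31, an acidic keratin of the hair cortex, read 6.11, 4.44, 5.86 and 3.59 on KO arrays, against 0.49, 2.16 and 0.18 on WT arrays, a difference of 4.06 (SE 0.694, limma adjusted p = 0.145). Krt85, a basic keratin of the hair matrix and cortex, read 6.25, 4.80, 5.95 and 3.67 on KO arrays, against 0.50, 2.27 and 0.39 on WT arrays. Krt71, a keratin of the inner root sheath, read 9.85, 8.90, 9.39 and 8.0 on KO arrays, against 4.52, 6.67 and 4.69 on WT arrays. In all 3 genes KO 1 and KO 3 were the highest arrays, KO 4 was the lowest KO array, WT 2 was the highest WT array, and the groups did not overlap. The shaft keratins Krt84 and Krt33b differed by 3.43 and 4.13. The sheath genes Krt25, Krt27 and Tchh, which encodes trichohyalin, differed by 4.14, 4.15 and 3.96 (limma adjusted p = 0.145 for each). Gata3, a sheath transcription factor that epidermis also uses, given for its role, was the exception at -0.51 (limma adjusted p = 0.564).

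KRTAP proteins cross-link the keratin filaments of the shaft, and their genes had the highest list medians. The 13 tested high glycine-tyrosine genes had a median difference of 5.15 and the 26 others one of 4.57. All of both were higher in KO at an unadjusted p below 0.05, against 2.86% of all genes. Krtap21-1 read 6.84, 4.39, 5.85 and 4.84 on KO arrays, against -1.53, 1.84 and -0.33 on WT arrays, a difference of 5.49 (SE 0.823, limma adjusted p = 0.145). Krtap19-2 read 6.33, 3.89, 5.64 and 2.91 on KO arrays, against -3.50, 0.13 and -1.45 on WT arrays, a difference of 6.30 (SE 1, limma adjusted p = 0.145). Both had every KO array above every WT array, with WT 2 the highest WT array. Krtap19-4, Krtap6-2, Krtap1-5, Krtap2-4, Krtap3-1 and Krtap4-16 differed by 5.92, 5.62, 5.87, 4.52, 4.92 and 4.46.

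KRTAP genes lie in clusters of near-identical copies, so a probe may also bind transcripts of relatives and single members are uncertain. The Krtap21-1 probe is printed as the probe of the higher gene with the smallest p. Capitals mark a repeat within the probe itself, an 18-base stretch that starts at positions 8 and 38 of its 60 bases (mm9).
Krtap21-1 probe, chr16:89403912-89403971, minus strand: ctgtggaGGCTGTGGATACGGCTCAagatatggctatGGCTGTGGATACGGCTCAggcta

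Regulators and markers of the growing follicle moved less as a list. Of 23 tested genes of 35 on the array, 10 were higher and 0 lower at an unadjusted p below 0.05, against 2.86% and 4.96% of all genes. None passed the adjusted test, and the median difference was 0.71. It was 0.30 over genes well above background on all 7 arrays, 0.45 with normexp and 0.46 without KO 3. The list median was 0.64, 0.61, 0.91 and 0.14 on KO arrays, against -0.66, -0.72 and -0.87 on WT arrays, so the groups did not overlap. S100a3, Gprc5d, Vsig8 and Prr9, found in the cortex and cuticle of hair, differed by 3.7, 4.27, 4.08 and 4.50. Given for their role, Lef1, a WNT transcription factor of hair precursor cells, read 0.24, -1.01, 0.29 and -2.08 on KO arrays, against -4.17, -3.00 and -2.45 on WT arrays (limma adjusted p = 0.318), and Msx2, a homeobox gene of the hair matrix, read 2.16, 0.61, 2.13 and 0.24 on KO arrays, against -0.66, -0.72 and -0.91 on WT arrays (limma adjusted p = 0.282). The 15 follicle stem cell genes had a median difference of -0.18, which was 0.05 without WT 1 and 0 without KO 1. At an unadjusted p below 0.05, 1 of the 15 was higher, against 2.86% of all genes. It was the receptor gene Lgr5, at 0.83 (limma adjusted p = 0.556).

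**Figure D3:**
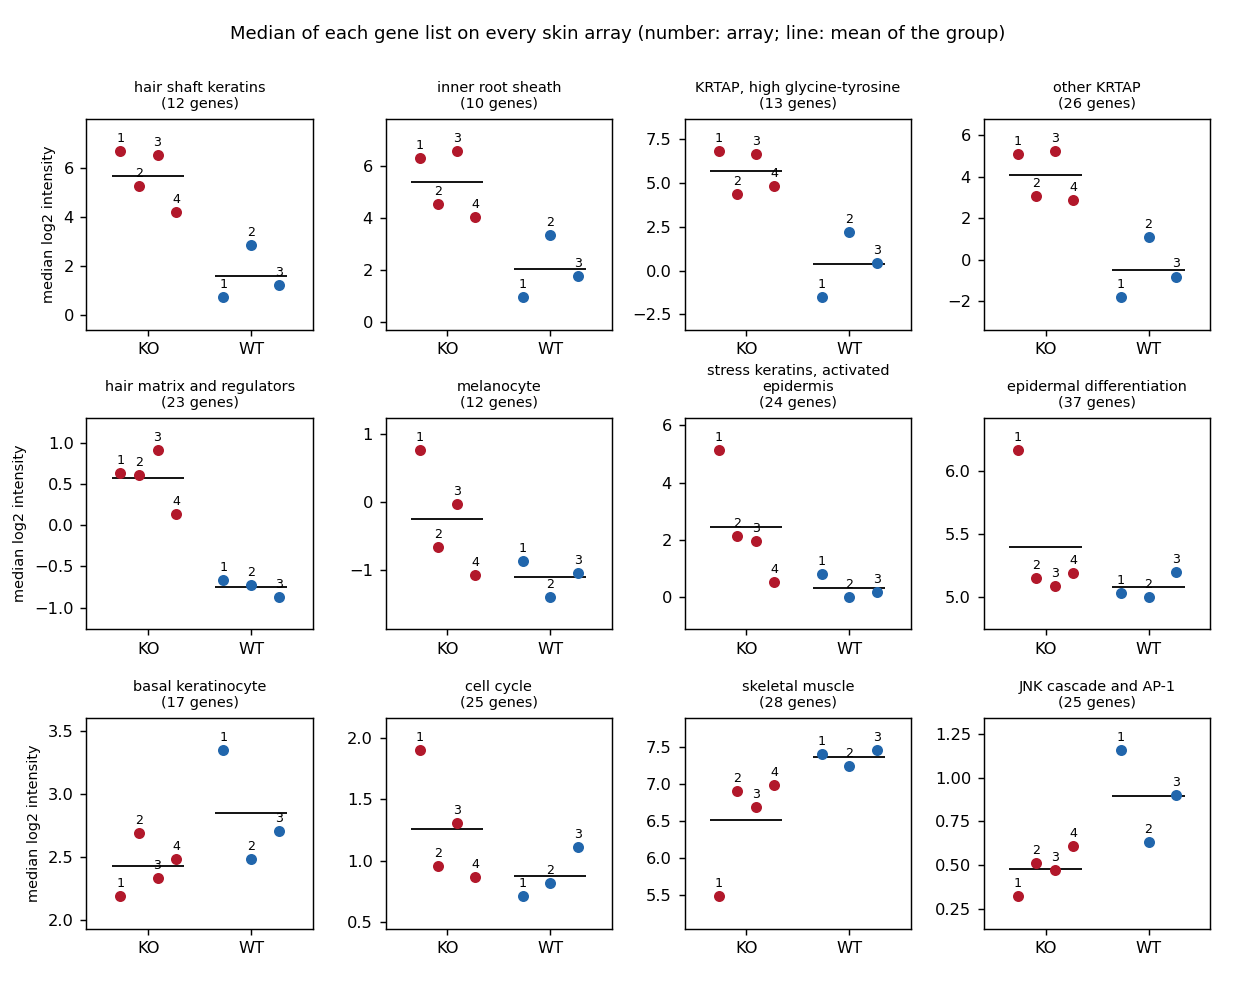
Median log2 intensity of gene lists on each skin array (vertical axes, a scale for each panel), KO in red left of WT in blue, a numbered point for each array and lines at group means. The shaft keratin median is 6.68, 5.26, 6.52 and 4.19 on KO arrays, against 0.73, 2.84 and 1.24 on WT arrays, and the stress list is highest on KO 1 at 5.13.

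The hair genes also moved together among replicates. KO 1 and KO 3 were the 2 highest KO arrays for 59 of the 61 structural genes, against 2593 of 13533 genes in all. WT 2 was the highest WT array for 58 of the 61, against 3238 of 13533. KO 4 was the lowest KO array for 50 of them. KO 1 shares a slide with KO 4, and KO 2 with KO 3. The 60 genes at least 4-fold higher that belong to no list had KO 1 and KO 3 on top in 48 cases. Some of the 60 lie between KRTAP genes, as given above. Without WT 2, 37 genes were higher and 2 lower by the adjusted test, and 32 of these 39 were in the hair lists. With the median in place of the 75th percentile as the scale of each array, 134 were higher and 4 lower, 65 of them in the hair lists. With all tissues in 1 fit, 116 were higher and 16 lower.

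**Figure D4:**
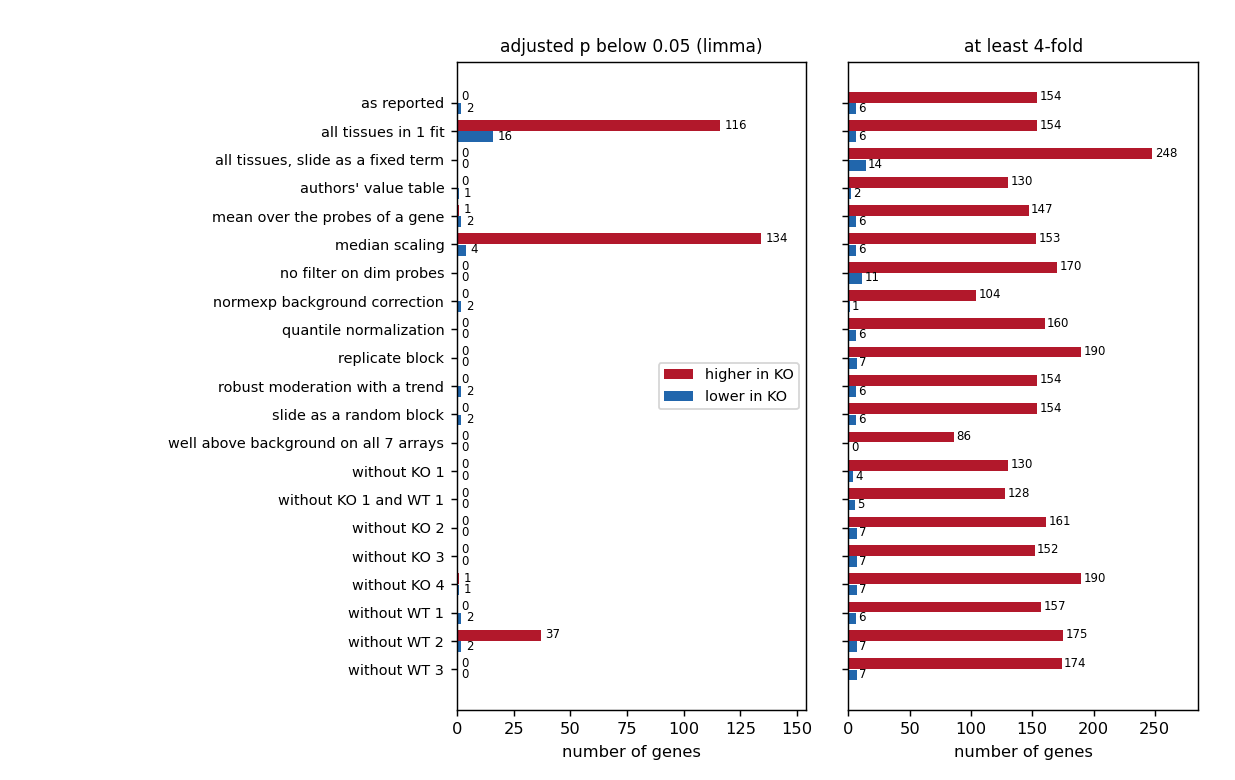
Number of genes that pass the adjusted test and number that differ by at least 4-fold in KO skin under each processing setting, for genes higher (red) and lower (blue) in KO. The adjusted count of higher genes lies between 0 and 134, and the 4-fold count of higher genes between 86 and 248.

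The genes at least 4-fold higher were most frequent on chromosome 16, with 31 of 438 tested (7.08%), followed by chromosome 11 with 33 of 1157 (2.85%), chromosome 3 with 18 of 686 (2.62%) and chromosome 15 with 12 of 558 (2.15%). The share over all genes was 1.14%. Chromosomes 11 and 15 carry the keratin clusters, chromosome 16 KRTAP genes and chromosome 3 the epidermal differentiation complex.

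Promoters are shown for a shaft keratin, a sheath keratin, a KRTAP gene and a stress gene, as examples of the hair genes and of the stress list, whose order of arrays differs. Each line holds the 250 bases before the start site (RefSeq, GRCm38.p6), with capitals marking TATAAA (the TATA box), CTTTGA (a LEF/TCF core) and TGANTCA (an AP-1 motif), searched on both strands.
Krt31, chr11:100050552-100050801, minus strand: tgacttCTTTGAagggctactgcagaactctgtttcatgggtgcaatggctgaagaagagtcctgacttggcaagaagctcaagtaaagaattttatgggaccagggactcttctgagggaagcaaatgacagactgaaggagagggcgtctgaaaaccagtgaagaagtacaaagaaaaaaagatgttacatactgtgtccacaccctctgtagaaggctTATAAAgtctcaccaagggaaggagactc
Krt71, chr15:101743098-101743347, minus strand: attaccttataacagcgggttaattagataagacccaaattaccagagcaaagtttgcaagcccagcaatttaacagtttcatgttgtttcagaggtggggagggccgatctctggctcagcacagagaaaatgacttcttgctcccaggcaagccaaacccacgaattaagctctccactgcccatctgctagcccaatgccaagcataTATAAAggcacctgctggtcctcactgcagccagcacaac
Krtap21-1, chr16:89403775-89404024, minus strand: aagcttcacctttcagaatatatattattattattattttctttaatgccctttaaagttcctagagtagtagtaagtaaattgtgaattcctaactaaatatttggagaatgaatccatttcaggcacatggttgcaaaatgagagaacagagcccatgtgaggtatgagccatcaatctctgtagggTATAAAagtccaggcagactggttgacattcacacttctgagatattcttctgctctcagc
Sprr2f, chr3:92364937-92365186, plus strand: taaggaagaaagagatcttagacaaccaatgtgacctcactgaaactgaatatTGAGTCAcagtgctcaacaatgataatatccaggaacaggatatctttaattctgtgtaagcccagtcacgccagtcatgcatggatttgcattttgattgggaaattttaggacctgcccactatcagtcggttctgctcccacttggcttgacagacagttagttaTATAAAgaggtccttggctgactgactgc
TATAAA starts 29 bases before the start site in Krt31 and Sprr2f, 40 before it in Krt71 and 61 before it in Krtap21-1. In windows that also hold the 50 bases after the start, TATAAA was found in 38 of 52 windows of structural hair genes (73.1%) and 12 of 17 of the stress list (70.6%), against 8.62% for genes tested in skin and 13.6% of all 32851 windows. TGANTCA was found in 9 of 52 windows of structural hair genes (17.3%) and 11 of 17 of the stress list (64.7%), against 5.84% and 7.81%. CTTTGA was found in 17 of 52 windows of structural hair genes (32.7%) and 0 of 17 of the stress list, against 12.1% and 16%. Genes of a cluster share sequence, and a match is a description of letters, not of binding.

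Several pigment genes had higher values in KO, although the medians of the whole list overlapped. Of 12 tested melanocyte genes of 16 on the array, 8 were higher and 0 lower at an unadjusted p below 0.05, against 2.86% and 4.96% of all genes. None passed the adjusted test, and the median difference was 1.86. That median was 1.06 with no filter on dim probes and 0.68 over genes well above background on all 7 arrays. The list median was 0.76, -0.66, -0.03 and -1.08 on KO arrays, against -0.87, -1.40 and -1.05 on WT arrays, with KO 4 within the WT values. WT 2 was the highest WT array for 5 of the 12 genes. Pmel, the fibril protein of melanosomes, read 3.61, 2.32, 2.92 and 0.54 on KO arrays, against -1.12, -0.34 and -0.54 on WT arrays (limma adjusted p = 0.183). Dct, a melanin enzyme gene given for its role, read 4.76, 3.19, 3.99 and 1.96 on KO arrays, against 0.47, 1.08 and 1.41 on WT arrays (limma adjusted p = 0.292). Neither gene's groups overlapped. Trpm1 and Slc45a2, a channel and a transporter of melanocytes, were well above background on 3 of 4 KO and 0 of 3 WT arrays and were at least 5.04-fold and 2.28-fold higher in KO (limma adjusted p = 0.21 and 0.208). Sox10, a factor of melanocytes and Schwann cells given for its role, differed by -0.13 (limma adjusted p = 0.892), with a sign that changed without WT 1.

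Stress keratins and other genes of activated epidermis followed another order of arrays. All 24 tested genes had a difference above 0, 14 were at least 4-fold higher and 10 were higher at an unadjusted p below 0.05. Over all genes tested these shares were 39.4%, 1.14% and 2.86%. None of the 24 passed the adjusted test. Their median difference was 2.18, and it was 1.07 without KO 1. S100a9, a calcium-binding alarmin, read 9.92, 5.81, 5.51 and 3.94 on KO arrays, against 2.59, 2.02 and 1.90 on WT arrays (limma adjusted p = 0.515). Krt16, a keratin induced in wounded epidermis, read 8.92, 6.62, 5.53 and 3.85 on KO arrays, against 4.23, 2.48 and 2.54 on WT arrays (limma adjusted p = 0.556). KO 1 stood highest in both, and for Krt16 KO 4 lay within the WT values. Krt6a, its partner given for its role, differed by 2.66 (limma adjusted p = 0.556). Krt17, another keratin given for its role, differed by 0.50 with overlap between the groups (limma adjusted p = 0.58). Sprr2f, whose product joins the cornified envelope, was measured above background on 3 of 4 KO and 0 of 3 WT arrays and was at least 7.44-fold higher in KO (limma adjusted p = 0.484).

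The list median of the stress genes was 5.13, 2.14, 1.97 and 0.52 on KO arrays, against 0.82, 0.01 and 0.17 on WT arrays, so KO 4 lay within the WT range. KO 1 was the highest KO array for 23 of the 24 genes, against 5049 of 13533 in all, and KO 1 and KO 2 were the top pair for 20. Stfa1, a gene of the stefin protease inhibitors given for its role, read 8.20, 5.70, 4.59 and 2.35 on KO arrays, against 1.49, 1.33 and 2.41 on WT arrays (limma adjusted p = 0.556), and so overlapped. Of 6 tested neutrophil markers of 14 on the array, 3 were higher at an unadjusted p below 0.05, against 2.86% of all genes. The filter kept Il1b only through its KO values, and the median difference was 0.37 over all 14 and 2.01 over the 6 tested. The list median of the 6 was 0.61, -0.16, -1.43 and -1.87 on KO arrays, against -1.07, -2.26 and -1.22 on WT arrays. These 3 were S100a9, S100a8 and Il1b, which keratinocytes can also make. Il1b, a cytokine gene, read 1.20, 0.01, -1.75 and -2.77 on KO arrays, against -4.45, -3.65 and -3.58 on WT arrays, was well above background on 0 of 3 WT arrays and was at least 4.37-fold higher in KO (limma adjusted p = 0.478). The part of neutrophils in these values was not tested.

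The medians of the differentiation and basal keratinocyte lists lay near that of all genes, though single epidermal genes did not. The 37 differentiation genes had a median difference of -0.07. At an unadjusted p below 0.05, 1 was higher and 1 lower, near the 2.86% and 4.96% of all genes. The higher gene was Tgm3, a transglutaminase of epidermis and hair, at 2.07. The lower gene was Krt2, a keratin of the upper epidermis, at -2.43 (limma adjusted p = 0.556 each). Rptn, of the same list, differed by 2.37 without overlap (limma adjusted p = 0.556), with KO 1 highest at 3.94. Krt2 read -4.13, 0.25, -1.35 and -0.24 on KO arrays, against 1.98, 0.16 and 1.04 on WT arrays, with the lowest value on KO 1 and overlap between the groups. The 17 basal keratinocyte genes had a median difference of -0.08. The gap junction genes Gjb2 and Gjb6, given for their role, differed by 2.84 and 3.31 without overlap (limma adjusted p = 0.26 and 0.318). KO lay above WT without overlap for 3.35% of all genes tested.

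Antimicrobial genes went both ways, more of them higher than lower. Of 13 tested of 20 on the array, 10 had a difference above 0, against 39.4% of all genes, and 3 below. Their median difference was 0.30, and 0.05 without KO 1. The beta-defensin gene Defb8 read 5.65, 5.66, 5.47 and 5.83 on KO arrays, against 7.03, 6.88 and 7.11 on WT arrays, a difference of -1.36 (SE 0.183, limma adjusted p = 0.145). The beta-defensin gene Defb3 read 4.34, 4.17, 3.74 and 4.21 on KO arrays, against 5.54, 5.15 and 5.50 on WT arrays, a difference of -1.28 (SE 0.218, limma adjusted p = 0.145). In both, the KO arrays lay close together and below every WT array. Wfdc18, a whey acidic protein family gene, read 2.71, 0.55, 1.31 and -0.09 on KO arrays, against -2.02, -1.14 and -1.41 on WT arrays (limma adjusted p = 0.23), with KO above WT. Of the 13 tested genes, 4 were higher and 2 lower at an unadjusted p below 0.05, against 2.86% and 4.96% of all genes. At least 4-fold higher were 3 of the 13, against 1.14% of all genes.

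Outside the hair lists, the higher genes with the smallest p were Dio3, Spink12, Olfr1134, Csdc2, Otop2, Pinlyp, Lrrc15, Ptar1, Bcr and Tagln3, with limma adjusted p between 0.145 and 0.148. Dio3, whose product inactivates thyroid hormone, read -0.56, -1.91, -0.23 and -1.86 on KO arrays, against -4.33, -3.72 and -5.03 on WT arrays. It was well above background on 4 of 4 KO and 0 of 3 WT arrays and was at least 3.52-fold higher in KO. Spink12, Csdc2 and Tagln3 were also not well above background on any WT array, and were at least 17.4-fold, 5.77-fold and 6.92-fold higher in KO. Pinlyp read 5.61, 3.57, 5.37 and 3.34 on KO arrays, against 1.07, 1.54 and 0.61 on WT arrays. Olfr1134, Otop2, Lrrc15, Bcr and Ptar1 differed by 5.13, 4.41, 3.91, 4.13 and 0.89. Bcr was 0.98 with the mean over its probes, so its probes disagree, and Olfr1134, Otop2 and Ptar1 were 2.85, 2.09 and 0.41 with normexp. In each of the 10 genes every KO array lay above every WT array, as for 3.35% of all genes tested. A choice by smallest p favours such genes.

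After Rpp14 and Gpnmb, the lower genes with the smallest p were Defb8, Defb3, Asb4, Ppp1r27, Fam181b, Esrrg, Sfrp5, Mfsd7b, Pou4f1 and Tmc8, with limma adjusted p between 0.145 and 0.235. Asb4, a SOCS box gene, read -2.51, -2.38, -2.20 and -1.75 on KO arrays, against -0.82, -1.01 and -0.87 on WT arrays. Sfrp5, which encodes a secreted WNT antagonist, read -1.41, -0.71, -1.31 and -0.99 on KO arrays, against 0.31, 0.08 and -0.23 on WT arrays. The groups overlapped in none of the 10, and KO lay below WT without overlap for 8.14% of all genes tested. Here too the choice by smallest p favours such genes. Ppp1r27, Fam181b, Esrrg, Mfsd7b, Pou4f1 and Tmc8 differed by -1.09, -1.22, -1.05, -0.90, -0.87 and -1.16. Of these genes, 4 were dim. Esrrg and Tmc8 were well above background on 1 of 4 KO and 2 of 3 WT arrays, and Fam181b and Pou4f1 on 2 of 4 KO arrays. With normexp, Fam181b, Esrrg, Mfsd7b, Pou4f1 and Tmc8 differed by -0.28, -0.19, -0.19, -0.22 and -0.27, and Asb4 and Sfrp5 by -0.52 and -0.65.

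Genes of muscle, fat and vessels had list medians below that of all genes, by less than 2-fold. Of 28 skeletal muscle genes, from the muscle sheet under mouse skin, all had a difference below 0, and 2 were lower at an unadjusted p below 0.05, a share near the 4.96% of all genes. The list median was 5.48, 6.90, 6.69 and 6.99 on KO arrays, against 7.40, 7.24 and 7.46 on WT arrays, with KO 1 lowest and no overlap. The median difference was -0.68, and -0.43 without KO 1. The 22 adipocyte genes had a median difference of -0.60 with 5 lower at an unadjusted p below 0.05, and -0.35 without KO 1. The 20 endothelial genes had one of -0.60 with 7 lower, and -0.44 without KO 1. These 5 and 7 stand against 4.96% of all genes. In both lists the list medians overlapped, with KO 4 within the WT values. Aqp7, the glycerol channel of fat cells, differed by -0.89 (limma adjusted p = 0.515), and Actn3, a muscle actinin gene, by -1.17 (limma adjusted p = 0.556). Mmrn2, of the vessel wall, differed by -1.04 (limma adjusted p = 0.491), and it is also among the lower genes within 10 Mb of Mapk8. The part of the tissue's makeup in these values and in the hair values was not tested.

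The 9 tested MHC class II and Langerhans cell genes had a median difference of -0.54, which was -0.36 without KO 1. At an unadjusted p below 0.05, 3 of the 9 were lower, against 4.96% of all genes. These were the antigen presentation genes H2-Eb1, H2-DMb1 and H2-Ab1, at -0.68, -0.59 and -0.55 (limma adjusted p = 0.556 each). The 16 macrophage genes had a median difference of -0.23 (-0.08 without WT 2, -0.12 without WT 3, -0.43 without WT 1 and -0.05 in the authors' value table), with 0 at an unadjusted p below 0.05 by limma and 0 past the adjusted test.

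**Figure D5:**
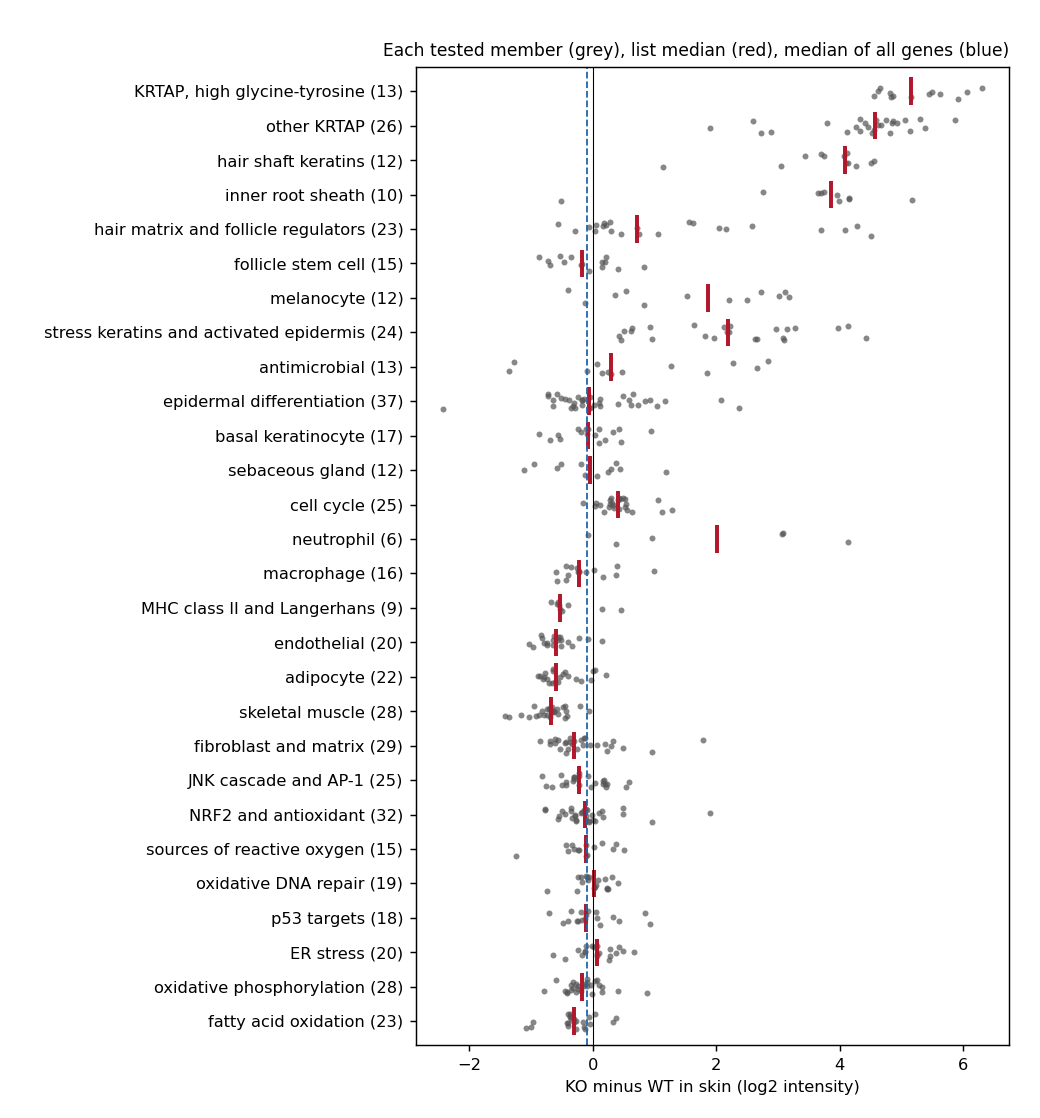
KO minus WT in skin (log2, horizontal) of the tested members of 28 gene lists (grey points), with list medians in red and the median of all genes, -0.10, as a blue dashed line. The KRTAP medians stand at 5.15 and 4.57, the stress list at 2.18, and the muscle list at -0.68.

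Genes of the JNK cascade and AP-1 showed 1 higher and 1 lower of 25 at an unadjusted p below 0.05, near the 2.86% and 4.96% of all genes. Their median difference was -0.22, and -0.06 without WT 1. The list median was 0.32, 0.51, 0.47 and 0.61 on KO arrays, against 1.16, 0.63 and 0.90 on WT arrays. Dusp1, a phosphatase gene whose product inactivates JNK and p38, read 0.59, 1.05, 1.11 and 1.34 on KO arrays, against 2.19, 1.41 and 1.74 on WT arrays, with KO below WT (limma adjusted p = 0.556). Dusp4, another such phosphatase gene, differed by 0.59 and the stress factor gene Atf3 by -0.66. The AP-1 genes Jun and Fos, given for their role, differed by -0.31 and -0.30.

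Of 32 NRF2 and antioxidant genes, 1 was higher and 2 lower at an unadjusted p below 0.05, near the 2.86% and 4.96% of all genes. Their median difference was -0.13. Gpx2, an epithelial glutathione peroxidase gene, read 4.15, 2.34, 3.16 and 1.80 on KO arrays, against 1.57, 0.82 and 0.53 on WT arrays (limma adjusted p = 0.507). It had all KO arrays above all WT arrays, with KO 1 and KO 3 highest. Gpx3, the secreted peroxidase, and Keap1, the inhibitor of NRF2, differed by -0.78 and -0.55. Given for their role, Sod2, Cat, Nnt and Nqo1 differed by -0.29, -0.34, -0.35 and -0.20, and Hmox1 by -0.11 with a sign that changed with the processing. The 15 genes that make reactive oxygen or nitrogen had a median difference of -0.12, with the nitric oxide synthase gene Nos1 at -1.24 (limma adjusted p = 0.556).

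The 19 repair genes of oxidised DNA had a median difference of 0.02, and Mutyh, a DNA glycosylase gene, was at -0.74 (limma adjusted p = 0.556). The 18 p53 targets had one of -0.12, with 1 higher and 1 lower at an unadjusted p below 0.05, against 2.86% and 4.96% of all genes. Ogg1 and Cdkn1a, given for their role, differed by -0.11 and -0.18, and both signs changed with the processing. Of 25 cell cycle genes, 24 had a difference above 0, against 39.4% of all genes. At an unadjusted p below 0.05, 2 of the 25 were higher, against 2.86% of all genes. Their median difference was 0.40, and 0.07 without KO 1, which was the highest KO array for 23 of the 25. Mki67, a marker of dividing cells, read 3.59, 2.39, 2.41 and 1.22 on KO arrays, against 0.31, 1.43 and 1.62 on WT arrays, so that KO 4 lay within WT (limma adjusted p = 0.556).

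Of 23 fatty acid oxidation genes, 20 had a difference below 0, a larger share than the 8201 of all 13536 genes tested. At an unadjusted p below 0.05, 3 of the 23 were lower, against 4.96% of all genes, and the median difference was -0.31. Ucp3, a mitochondrial carrier of muscle, read -1.97, -2.03, -1.70 and -1.54 on KO arrays, against -0.49, -1.20 and -0.73 on WT arrays (limma adjusted p = 0.276), without overlap. Pdk4, a kinase gene that limits glucose oxidation, and Cpt1b, the muscle form of carnitine palmitoyltransferase, differed by -1.08 and -0.97. Muscle genes lay lower on the same arrays, as given above, and their part in these values was not tested.

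The KO effect in skin was tested against the effects in the other tissues in 1 fit over 20 arrays. The fat WT 2 scanner file was left out, because it correlated at 0.863 to 0.914 with skin arrays and at 0.725 to 0.766 with fat arrays. The skin effect was higher than the liver effect for 29 of 14834 genes (0.195%) and lower for 1 (0.00674%) by limma at adjusted p below 0.05. It was higher than the fat effect for 64 of 16083 genes (0.398%) and lower for 4 (0.0249%). Of the hair list genes, 18 passed against liver, and 38 of 106 tested passed against fat. Most named genes that passed were not measured in the other tissue: 14 of 17 were well above background on no liver array and 17 of 24 on no fat array, so these differences set a skin effect against background values. Dio3 was such a gene in liver. In fat it was well above background on 4 of 4 KO and 2 of 3 WT arrays and differed by -0.21, and the skin effect, itself resting on WT values near background, exceeded this by 3.42 (limma adjusted p = 0.0215). With the left-out file kept, the genes passing in either direction numbered 0 for liver and 3 for fat. Single skin arrays also decided these counts, which lay between 4 (without WT 3) and 105 (without KO 4) for liver, and between 0 (without WT 1) and 150 (without KO 4) for fat.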

How the data were processed

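RNA of skin, liver and epididymal fat was measured on 1-colour Agilent arrays from 0.2 ug of RNA, per the labels' protocols. Per the file headers, the deposited scanner files hold intensity values, background-subtracted by Agilent Feature Extraction 10.7.3.1. The authors' deposited value table holds log2 values, and its centring and normalization are not given in the sources used here (column medians of the skin arrays 5.92 to 6.00). The submitters' processing notes also name limma.

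Processed intensity was averaged over the spots of a probe without outlier flags, and log2 values were set relative to each array's 75th percentile. Of 41174 probes, 27897 matched RefSeq accessions. Each of 27558 genes kept its brightest probe over the 7 skin arrays, and 13536 genes well above background on at least 3 arrays were tested with limma 3.58.1 in R 4.3.3 (lmFit and eBayes, 4 KO against 3 WT, Benjamini-Hochberg adjustment, threshold 0.05). The tests were checked on simulated data. A fold given as "at least" is the brighter group's mean over the higher of the lowest well-measured signal and the dim probe's own signal.

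Members and the 44 gene lists were chosen with earlier results of these data known. Named genes were Mapk8, Mapk9, Mapk10, the called genes, the higher genes and lower genes with the smallest p (for higher genes 4 of any kind and 10 outside the hair lists, for lower genes 12), up to 4 members of each hair list and 3 of other described lists, and up to 3 genes of each difference between tissues. Genes given for their role are marked. Alternatives changed the value source, normalization, background correction, dim-probe filter, probe summary, slide, sample set and moderation. The number of arrays limits the precision.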

Additional observations from a re-analysis of the deposited data

Results flagged for a closer look

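Single arrays lay apart from the others of the KO group, by the gap to the nearest array over the range of the 4, in 7 of 178 named genes and list medians, where chance flags about 1 in 20. KO 2 read 3.01 for the macrophage gene Cd68, with the nearest array at 2.25, and its macrophage list median was 2.74, with the nearest at 2.27. KO 1 read -0.28 for Nos1, with the nearest array at 1.48. KO 1 also stood apart in the medians of epidermal differentiation genes at 6.16, epidermal lipid barrier genes at 2.51, smooth muscle and pericyte genes at 0.51 and clock genes at -0.21, where the nearest arrays were at 5.19, 1.71, 1.6 and 0.71.

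The KO effect in skin differed from that in liver (limma, adjusted p below 0.05) for these named hair genes, as skin effect minus liver effect on the log2 scale: Krt25 4.09, Krt31 4.02, Krt33b 4.03, Krt71 3.97, Krt85 4.03, Krtap1-5 5.76, Krtap19-2 6.60, Krtap19-4 5.85, Krtap2-4 4.64, Krtap21-1 5.45, Krtap6-2 5.85 and S100a3 4.55. The other named genes that differed from liver were Abcb1b 3.02, Dio3 3.49, Flrt3 3.17, Olfr1134 5.52 and Reg2 -4.74.

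The KO effect in skin differed from that in fat (limma, adjusted p below 0.05) for these named hair genes, as skin effect minus fat effect on the log2 scale: Krt25 4.29, Krt27 4.40, Krt31 4.13, Krt33b 4.22, Krt71 3.79, Krt84 4.20, Krt85 4.16, Krtap1-5 5.54, Krtap19-2 6.44, Krtap19-4 6.37, Krtap2-4 4.39, Krtap21-1 5.56, Krtap3-1 5.00, Krtap6-2 5.68, Tchh 4.14 and Vsig8 5.46. The other named genes that differed from fat were Akr1b7 10.17, Anxa8 -2.33, Arg2 4.54, Csdc2 3.93, Dio3 3.42, Lrrc15 4.50, Olfr1134 5.62 and Otop2 4.54.

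Of these named genes, 14 of 17 were well above background on no liver array and 17 of 24 on no fat array, Dio3 in liver among them, so their differences rest on background values there. In some of these genes the larger difference was in the other tissue. Abcb1b, a drug efflux pump gene, differed by -0.43 in skin and -3.45 in liver. Akr1b7, an aldo-keto reductase gene, and Reg2 were not well above background on any skin array, and differed by -10.29 in fat and 4.69 in liver. Arg2, an arginase gene, differed by 1.08 in skin and -3.46 in fat.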

How the results depend on the processing

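The number of genes lower in KO skin by the adjusted test, 2 in the report, was 1 in the authors' value table, 4 with median scaling and 16 with all tissues in 1 fit. It was 0 with quantile normalization, with no filter on dim probes, with the filter on all 7 arrays, with the replicate block and with slide as a fixed term over all tissues. The number higher, 0 in the report, was 134 with median scaling, 1 with the mean over the probes of a gene and 116 with all tissues in 1 fit. Leaving out arrays gave 0 to 2 lower and 0 to 37 higher genes. Genes at least 4-fold higher numbered 86 with the filter on all 7 arrays, 248 with slide as a fixed term, and 128 to 190 without arrays. Genes at least 4-fold lower numbered 2 in the value table, 1 with normexp, 11 with no filter, 0 with the filter on all 7 arrays, 14 with slide as a fixed term, and 4 to 7 without arrays. The count of differences from liver, 30 in either direction, was 66 in the value table, 4 with slide as a fixed term, 0 with every scanner file and 4 to 105 without skin arrays. That from fat, 68, was 104, 0, 3 and 0 to 150 in the same settings. Same-numbered KO and WT arrays had correlations of -0.0651, -0.11 and -0.0439, which gave no sign of pairing by number. KO 1 and WT 1 did lie together on the second principal component, at -43.8 and -45.8. Whether they share a processing step was not tested. The replicate block gave 190 genes at least 4-fold higher.

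Signs turned for these differences. Mapk9 was 0 with quantile normalization, -0.23 with the mean over probes, -0.09 with slide as a fixed term and -0.12 to 0.16 without arrays. Hmox1 was 0.14 in the value table, 0.02 with quantile normalization, 0.07 with slide as a fixed term and -0.26 to 0.11 without arrays. Ogg1 was 0.09 with normexp and -0.51 to 0.07 without arrays. Cdkn1a was 0.29 with slide as a fixed term and -0.42 to 0.24 without arrays. Sox10, Gata3 and Tcf7l1 were -0.58 to 0.39, -0.77 to 0.06 and -0.74 to 0.04 without arrays. With slide as a fixed term H2-DMb1 was 0.15, H2-Ab1 0.02, Ncf4 0.04 and Cyp2e1 -1. Medians of lists near 0 also turned sign: between -0.30 and 0.11 for epidermal differentiation, -0.13 and 0.08 for basal keratinocyte, -0.08 and 0.05 for oxidative DNA repair genes as single arrays were left out. The causes were not tested. Dim probes limit Mapk8, Rpp14 in KO, Esrrg, Tmc8, Fam181b, Pou4f1 and the genes given as bounds.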

Other observations

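The 16 tested liver genes had a median difference of 0.26 in skin, which was 0.01 without WT 3 and 0.61 without KO 1, and KO 1 was the lowest KO array for 16 of the 16. Mup1, which encodes a major urinary protein, read 5.77, 7.21, 6.55 and 7.08 on KO arrays, against 5.76, 5.63 and 5.73 on WT arrays (limma adjusted p = 0.556), with all KO arrays above all WT arrays. The 10 thyroid hormone genes, Dio3 among them, had a median difference of -0.29. Slc16a10, a transporter of thyroid hormone and aromatic amino acids, and Thra, a receptor gene, differed by -0.76 and -0.65 (limma adjusted p = 0.556 each), with KO below WT on all arrays.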
